A study of Mus musculus with 36 samples.

Results

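The 6 gap junction genes described here are the connexins Gja1, Gjb2, Gjb5, Gjb6 and Gjc1 and the pannexin Panx1, taken by symbol from a table of 55487 mouse genes. They were picked by name, with Gjb2 singled out because dexamethasone (Dex) lowers it, so the fall of Gjb2 in wild-type cells is given below as a description and not as a test result. The adjusted p of its fall in the mutants are to be read with that choice in view. Expression was measured by RNA-seq in primary mouse embryonic fibroblasts (MEFs), grown from midgestation embryos after the head and organs had been removed, and the cells received either 1 µM Dex, a synthetic ligand of the glucocorticoid receptor (GR), or solvent (vehicle) for 5 h. The 36 libraries form 12 groups of 3, and the cultures of a genotype came from different mice. Run 1 holds GRwt/wt (replicates 1 to 3), GRD/D, GRD+L/D+L and GRko/ko, and run 2 holds GRL/L and a further set of GRwt/wt cultures (replicates 4 to 6), each with vehicle and with Dex. The D allele carries an amino acid change in the dimer interface of the DNA-binding domain of GR, the L allele an isoleucine-to-alanine change in the ligand-binding domain, D+L both on one allele, and ko cells lack functional GR. The labels give the strain FVB/NJ for every library, whereas the methods of the study describe the mice with the knock-out allele as 129 Sv, so GRko/ko may differ from the other genotypes in background too. L and D+L alleles were made by CRISPR/Cas9 in zygotes that already carried a D allele. Primary MEFs are a mixed population, and in bulk RNA fewer cells of a type and less RNA per cell cannot be told apart.

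Gap junctions join the cytoplasm of neighbouring cells. Connexins assemble as hexamers into hemichannels, and hemichannels of adjacent cells dock into channels that let ions and small metabolites pass. Gja1 encodes connexin 43, the main connexin of fibroblasts. Gjb2 and Gjb6 encode connexin 26 and connexin 30, partners in the supporting cells of the cochlea and in skin, where loss of Gjb2 causes deafness. Gjb5 encodes connexin 31.1, found mainly in skin, Gjc1 encodes connexin 45 of vascular and cardiac conduction tissue, and Panx1 encodes pannexin 1, a channel that does not dock between cells and releases ATP. GR binds its ligand in the cytoplasm, moves to the nucleus and raises or lowers transcription there.

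Library totals ran from 15280166 to 19102035 counts in run 1 and from 21532686 to 28662608 counts in run 2. Levels are given as CPM, a gene's counts scaled to a common library size, with library totals corrected by TMM, edgeR's trimmed mean of ratios between libraries. Complete separation of 3 libraries from 3 others arises by chance in 10% of genes without a change. Its share over all genes was not counted, so separation is given below as a description only. The mutated gene, Nr3c1, which encodes GR, stood at 67.2, 69.2 and 74.3 CPM in vehicle GRwt/wt libraries of run 1 and at 15.9 to 18.0 CPM in vehicle GRko/ko libraries, 23.7% of wild type (log2 difference -2.08 ± 0.07 SE, edgeR adjusted p = 2.44e-23). Counts per gene do not show whether these remaining reads lie outside the deleted part. Under vehicle, Nr3c1 was higher than in wild type in GRD+L/D+L (0.47 ± 0.06, edgeR adjusted p = 2.17e-07). GRD/D and GRL/L did not pass (edgeR adjusted p = 0.118 and 0.390). Dex lowered Nr3c1 in GRwt/wt of runs 1 and 2 (-0.52 and -0.42), GRD/D (-0.20) and GRL/L (-0.27). The change in GRD+L/D+L did not pass (-0.14, edgeR adjusted p = 0.270). The part of Nr3c1 in the responses below was not tested. Fibroblast markers were high throughout, with 12 of 12 tested and a summed level of 36410 to 52745 CPM. Macrophage markers, 10 of 10 tested, ranged from 30.7 to 3292 CPM and differed by genotype, and their range is given beside the vehicle comparisons. The 10 epithelial markers summed to at most 11.0 CPM in 35 libraries and to 51.6 CPM in GRwt/wt vehicle replicate 6 of run 2, which held 554 counts of Krt5 and 674 of Krt14.

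The 250 bases before the annotated start of Gjb2, Gja1 and Gjb5, the members whose level changed with Dex in most of the genotypes that carry a receptor or in both D genotypes, are printed here 5′ to 3′, to show which factor motifs the start regions hold, from RefSeq (assembly GRCm38.p6, the mm10 build), with the motifs named afterwards in capitals.
Gjb2, chr14:57104703-57104952, minus strand: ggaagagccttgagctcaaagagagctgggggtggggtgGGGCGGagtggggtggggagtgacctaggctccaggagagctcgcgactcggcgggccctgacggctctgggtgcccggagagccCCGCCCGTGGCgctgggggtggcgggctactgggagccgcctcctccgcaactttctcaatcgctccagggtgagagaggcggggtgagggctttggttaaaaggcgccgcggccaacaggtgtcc
Gja1, chr10:56377050-56377299, plus strand: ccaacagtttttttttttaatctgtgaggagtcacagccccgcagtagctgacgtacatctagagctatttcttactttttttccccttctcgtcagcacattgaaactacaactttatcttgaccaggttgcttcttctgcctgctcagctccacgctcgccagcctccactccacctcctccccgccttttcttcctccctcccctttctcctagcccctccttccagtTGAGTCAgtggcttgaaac
Gjb5, chr4:127358165-127358414, minus strand: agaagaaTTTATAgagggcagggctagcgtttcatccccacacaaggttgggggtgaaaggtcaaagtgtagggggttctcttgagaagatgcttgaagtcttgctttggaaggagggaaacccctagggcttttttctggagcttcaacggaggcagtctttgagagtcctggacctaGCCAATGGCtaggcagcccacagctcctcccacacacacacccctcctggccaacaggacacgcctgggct
The Gjb2 window is 69.2% G and C. On both strands and from 250 bases before to 50 after the start, it holds the Sp1 box GGGCGG at -211 and at -126, and the AP-2 motif GCCNNNGGC at -124, which overlaps the second box; positions count back from the first base before the start, -1. Gja1 holds the AP-1 motif TGANTCA at -19. Gjb5 holds an AP-2 motif at -71 and the TATA box TATAAA at -243, on the opposite strand. These letters are common: 35.7% of 32851 promoters in the table hold the Sp1 box, 16.6% the AP-2 motif, 13.6% the TATA box and 7.81% the AP-1 motif. The GR-binding hexamer AGAACA, present in 19.0% of promoters, was not in the window of any of the 5 members that have an entry (Gjc1 has none), nor was its palindrome with TGTTCT 3 bases further on, which only 3 promoters hold, nor the cAMP response element TGACGTCA (1.79%).

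Gjb2 lies on mouse chromosome 14 (mm10, 57098600 to 57104702, minus strand; ENSMUSG00000046352) and is annotated with 2 exons. In GRwt/wt cells of run 1 it stood at 11.2, 10.3 and 12.7 CPM with vehicle and at 2.25, 2.92 and 3.13 CPM with Dex. The Dex libraries all lay below the vehicle libraries, at 24.1% of their level (log2 fold change -2.05 ± 0.15 SE, n = 3 per group). In GRwt/wt cells of run 2 the level was much higher, 71.7, 71.7 and 79.3 CPM with vehicle, and Dex brought it to 19.9, 20.7 and 19.9 CPM. The vehicle level thus differed strongly between the runs, Dex left 27.2% of it (-1.88 ± 0.08), and the difference of the response between the 2 runs did not pass (0.17 ± 0.17, edgeR adjusted p = 0.676). Of all 15489 genes tested, 6.20% fell with Dex in run 1 and 16.7% in run 2, at an adjusted p of at most 0.05.

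**Figure D1:**
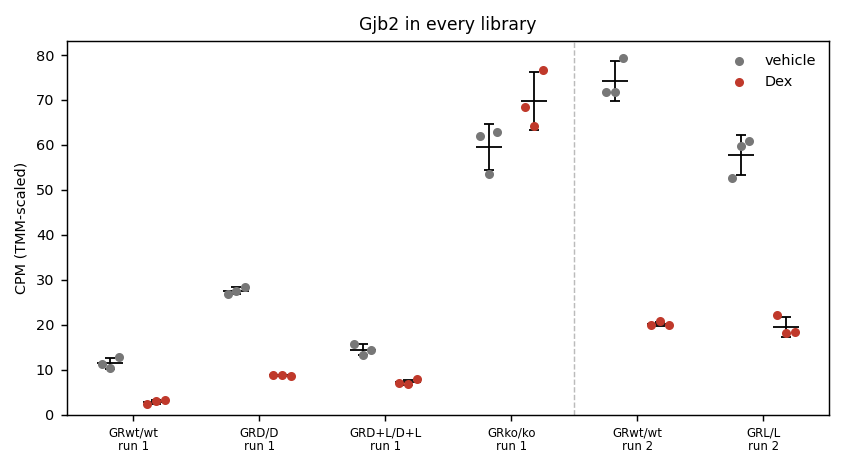
Level of Gjb2 in every library, in CPM on a linear axis, by genotype and run (the dashed line parts the runs); points are libraries, horizontal marks the mean of 3 and bars the SD. Dex libraries lie below vehicle libraries in every genotype except GRko/ko, where they lie above, and GRwt/wt of run 2 starts from 74.3 CPM against 11.4 CPM in run 1.

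Gjb2 fell with Dex in each of the 3 receptor mutants too. It was chosen because Dex lowers it, with earlier results of these data known. The adjusted p that follow are thus descriptions and not separate support. In GRD/D it went from 26.8, 27.5 and 28.5 CPM with vehicle to 8.85, 8.79 and 8.57 CPM with Dex (-1.66 ± 0.10, edgeR adjusted p = 1.57e-14). In GRD+L/D+L it went from 15.7, 13.2 and 14.3 CPM to 6.94, 6.83 and 7.88 CPM (-0.996 ± 0.12, edgeR adjusted p = 1.09e-07), so the double mutant kept 50.1% of its vehicle level, against 31.7% in GRD/D. In GRL/L it went from 52.7, 59.7 and 60.8 CPM to 22.1, 18.2 and 18.4 CPM (-1.56 ± 0.08, edgeR adjusted p = 1.92e-18). In none of these genotypes did a Dex library reach the lowest vehicle library. Genes that fell made up 6.24% of all genes tested in GRD/D, 1.92% in GRD+L/D+L and 10.4% in GRL/L.

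In GRko/ko the order was turned round: Gjb2 stood at 62.0, 53.6 and 63.0 CPM with vehicle and at 68.4, 64.1 and 76.8 CPM with Dex. The 2 sets do not overlap, as happens by chance in 10% of unchanged genes, and the difference did not pass (0.23 ± 0.07, edgeR adjusted p = 0.640). Of all genes tested in GRko/ko, 0% passed by edgeR, and DESeq2 called 1. An unadjusted p under 0.05 was found for 859 genes, or 5.55%, close to the share expected by chance at that limit. Of the 5 members tested, 0 passed by either tool and 3 (Gjb2, Gjc1 and Panx1) had an unadjusted p under 0.05 by edgeR.

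Set against wild type of the same run, and so resting on the very libraries in which the fall was first seen, the Gjb2 response was weaker by 1.05 ± 0.20 on the log2 scale in GRD+L/D+L (edgeR adjusted p = 4.63e-04) and by 2.28 ± 0.17 in GRko/ko (edgeR adjusted p = 4.94e-13). The differences for GRD/D (0.39 ± 0.19, edgeR adjusted p = 0.408) and GRL/L (0.32 ± 0.11, edgeR adjusted p = 0.138) did not pass, which does not show that these responses equal the wild-type response. As shares of the wild-type log2 fold change, GRD/D kept 80.9% ± 7.66 (SE), GRL/L 83.0% ± 5.23 and GRD+L/D+L 48.6% ± 6.70. Of all genes tested, 3.23% passed in the comparison of GRD+L/D+L with wild type, 8.48% in that of GRko/ko, 3.29% in that of GRD/D and 1.85% in that of GRL/L. The comparison of GRD+L/D+L with GRD/D does not use wild-type libraries: Gjb2 differed by 0.66 ± 0.16 (edgeR adjusted p = 0.0974), 0.0775% of all genes tested passed, and DESeq2 (adjusted p = 0.0198) and edgeR without a filter on low counts (adjusted p = 4.85e-03) did call Gjb2.

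Gja1 lies on chromosome 10 (56377330 to 56402513, plus strand; ENSMUSG00000050953). In run 1 Dex lowered it in the 3 genotypes with a receptor. GRwt/wt libraries stood at 134, 115 and 132 CPM with vehicle and at 83.6, 82.6 and 76.3 CPM with Dex, and the groups do not overlap (-0.65 ± 0.05, edgeR adjusted p = 1.25e-12, 13.9% of all genes tested passing in either direction). In GRD/D it went from 96.6, 97.8 and 99.0 CPM to 73.6, 64.4 and 65.0 CPM (-0.53 ± 0.05, edgeR adjusted p = 1.06e-09, 11.9% passing). In GRD+L/D+L it went from 188, 188 and 185 CPM to 132, 132 and 136 CPM (-0.48 ± 0.05, edgeR adjusted p = 4.41e-09, 5.00% passing). Unlike for Gjb2, the double mutant did not differ detectably from wild type in this response (0.17 ± 0.07, edgeR adjusted p = 0.276), although it did without GRwt/wt vehicle replicate 2 (0.24, edgeR adjusted p = 0.0416), the lowest of the wild-type vehicle libraries. GRko/ko held 190.5, 188 and 189 CPM with vehicle and 185, 193 and 182 CPM with Dex, overlapping sets, and its response differed from that of wild type by 0.64 ± 0.07 (edgeR adjusted p = 1.45e-08). With wild type of both runs pooled that difference was 0.17 and did not pass (edgeR adjusted p = 0.493).

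In run 2 Gja1 did not fall. GRwt/wt libraries stood at 157, 149.6 and 155 CPM with vehicle and at 173, 182 and 186 CPM with Dex, so every Dex library lay above every vehicle library (0.23 ± 0.05, edgeR adjusted p = 2.23e-04, 31.6% of all genes tested passing). The wild-type response of run 2 differed from that of run 1 by 0.88 ± 0.07 (edgeR adjusted p = 9.81e-12), in a comparison in which 7.09% of all genes tested passed. Run, depth and culture changed together and cannot be told apart. With wild type of both runs pooled, as in the formula of the study, the Gja1 response was -0.19 and did not pass (edgeR adjusted p = 0.0836). In GRL/L the libraries stood at 193, 197 and 204 CPM with vehicle and at 187, 200.1 and 194 CPM with Dex, overlapping sets (-0.03 ± 0.05, edgeR adjusted p = 0.706, 19.1% of genes passing). The GRL/L response lay below that of wild type in run 2 by 0.26 ± 0.07 (edgeR adjusted p = 0.0289), a call that was lost in 7 of the 12 fits without 1 library and when only the libraries of run 2 were fitted (edgeR adjusted p = 0.0558).

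**Figure D2:**
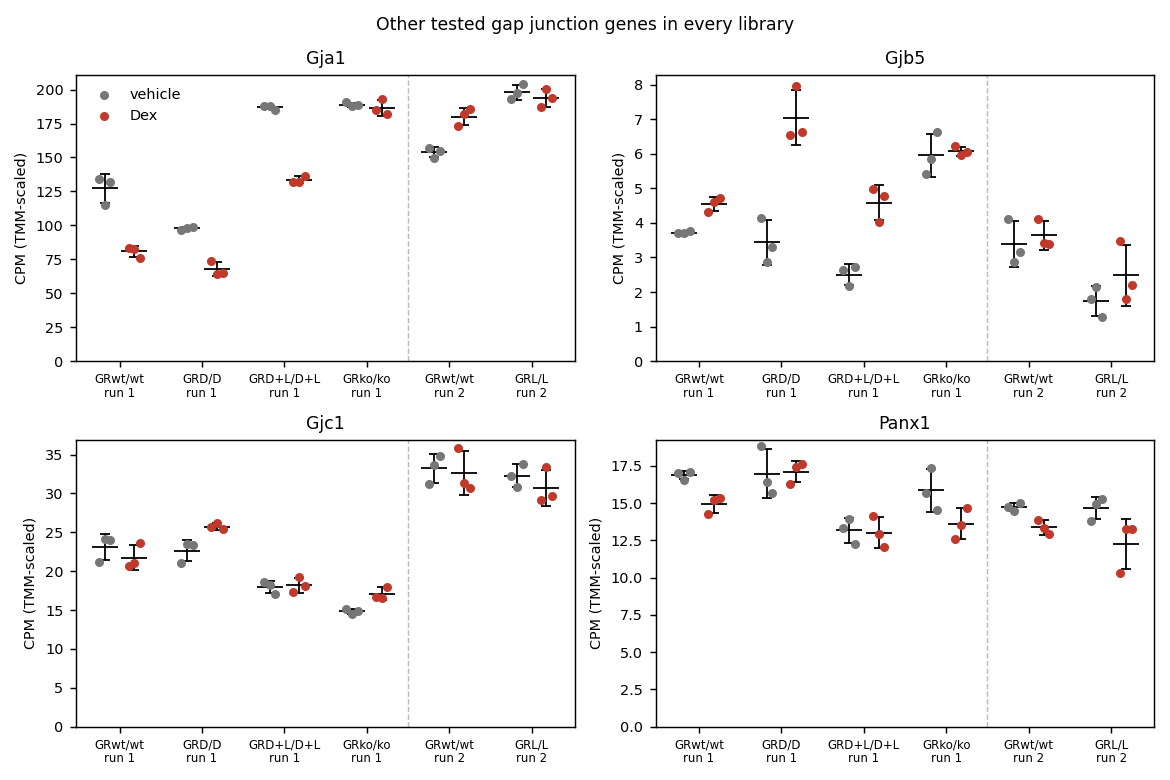
Levels of Gja1, Gjb5, Gjc1 and Panx1 in every library, in CPM on linear axes that start at 0, by genotype and run; points are libraries, horizontal marks the mean of 3 and bars the SD. Gja1 drops with Dex in 3 genotypes of run 1 and not in run 2, and Gjb5 climbs in GRD/D and GRD+L/D+L.

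Gjb5 (chromosome 4, 127354809 to 127358181, minus strand; ENSMUSG00000042357) was low, with 34 to 124 counts per library, and it moved upward. In GRD/D it went from 4.15, 2.86 and 3.29 CPM with vehicle to 6.54, 7.96 and 6.63 CPM with Dex (1.05 ± 0.17, edgeR adjusted p = 3.74e-05). In GRD+L/D+L it went from 2.63, 2.17 and 2.72 CPM to 4.97, 4.02 and 4.78 CPM (0.87 ± 0.20, edgeR adjusted p = 4.76e-03). In GRwt/wt of run 1 it stood at 3.70, 3.70 and 3.76 CPM with vehicle and at 4.31, 4.60 and 4.73 CPM with Dex. These sets do not overlap either, as happens by chance in 10% of unchanged genes. The change was smaller and did not pass (0.29 ± 0.19, edgeR adjusted p = 0.372). The D genotypes were not shown to respond more than wild type: the difference was 0.76 ± 0.26 for GRD/D (edgeR adjusted p = 0.118) and 0.58 ± 0.28 for GRD+L/D+L (edgeR adjusted p = 0.381). The first of these passed with only the libraries of run 1 in the fit (edgeR adjusted p = 0.0226) and with wild type of both runs pooled (edgeR adjusted p = 7.33e-03). GRko/ko libraries, at 5.41 to 6.64 CPM with vehicle and 5.95 to 6.21 CPM with Dex, gave 0.03 ± 0.16. In run 2 GRwt/wt gave 0.10 ± 0.16 and GRL/L 0.51 ± 0.19 (edgeR adjusted p = 0.0570), the latter with overlapping libraries at 1.29 to 2.15 CPM with vehicle and 1.79 to 3.46 CPM with Dex. DESeq2 called the GRL/L change (adjusted p = 0.0460), edgeR called it without Dex replicate 2 (0.69, adjusted p = 0.0118), Dex replicate 3 (0.61, adjusted p = 0.0478) or vehicle replicate 2 (0.70, adjusted p = 0.0229), and without Dex replicate 1, the highest library, it was 0.20.

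In the genotypes where Gjb5 rose, the 10 epithelial markers summed to 4.36 to 4.55 CPM with vehicle and 2.75 to 4.49 CPM with Dex in GRD/D, and to 6.12 to 7.02 and 4.46 to 5.03 CPM in GRD+L/D+L. Their part in the rise was not tested.

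The other members responded little. Gjc1 (chromosome 11, 102799579 to 102819700, minus strand; ENSMUSG00000034520) stood at 21.2, 24.1 and 24.0 CPM with vehicle and at 20.6, 21.1 and 23.6 CPM with Dex in GRwt/wt of run 1, overlapping sets, and its Dex response lay between -0.09 and 0.20 in the 6 sets of cultures, with 0 of 6 passing by edgeR and 2 (GRD/D and GRko/ko) at an unadjusted p under 0.05. Of all genes tested, 25.2% in GRD/D and 5.55% in GRko/ko had such a p. Panx1 (chromosome 9, 15002128 to 15045478, minus strand; ENSMUSG00000031934) fell in GRL/L, from 13.8, 15.0 and 15.2 CPM to 10.3, 13.2 and 13.3 CPM (-0.26 ± 0.08, edgeR adjusted p = 0.0165), a call that rested on single libraries: without GRL/L Dex replicate 1, the lowest, it was -0.15 (edgeR adjusted p = 0.229), and it was also lost without vehicle replicate 2 or 3. In wild type Panx1 gave -0.18 ± 0.09 in run 1 and -0.14 ± 0.08 in run 2, neither change passing (edgeR adjusted p = 0.2099 and 0.1797). Dex libraries lay below vehicle libraries in both runs, and complete separation arises by chance in 10% of unchanged genes in a run. Gjb6 (chromosome 14, 57123303 to 57133611, minus strand; ENSMUSG00000040055), which lies beside Gjb2, was at or near 0. It had 64 counts in all 36 libraries together, at most 8 in a library and 0 in 18 libraries (all 6 of GRD/D among them), and a count of 0 allows up to 3 counts, which is 0.0949 to 0.206 CPM over the 36 libraries. It was left out of the tests by the filter on low counts, which the other 5 members passed.

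**Figure D3:**
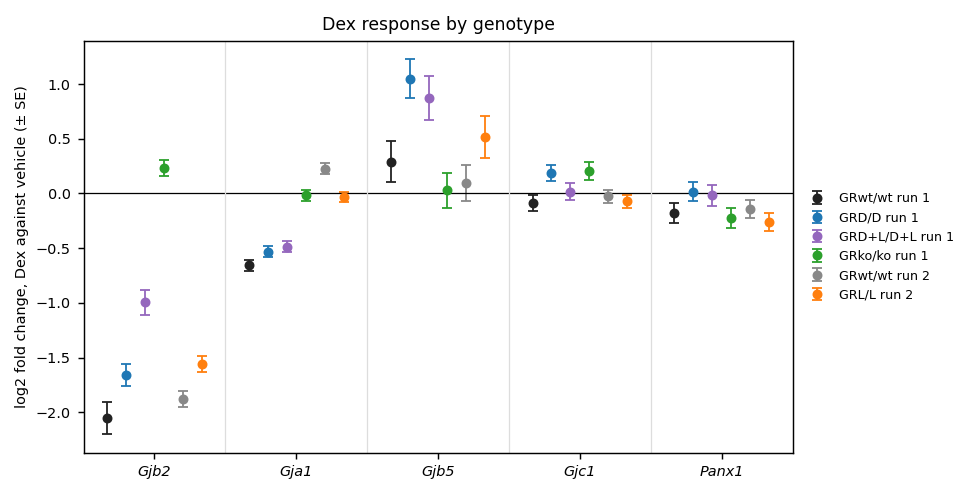
Dex response of the 5 tested members as log2 fold change of Dex against vehicle, with bars for the SE of the fit, by genotype and run (3 libraries per treatment). Gjb2 lies below 0 in every set except GRko/ko. Gja1 falls in run 1 except in GRko/ko, and does not fall in run 2. Gjb5 rises most in GRD/D and GRD+L/D+L, and Gjc1 and Panx1 stay near 0.

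By the count of members called, with Gjb2 among them by choice, 2 of 5 passed in GRwt/wt of run 1, 3 in GRD/D, 3 in GRD+L/D+L, 0 in GRko/ko, 2 in GRwt/wt of run 2 and 2 in GRL/L, beside 13.9%, 11.9%, 5.00%, 0%, 31.6% and 19.1% of all genes tested. The study also set a limit of 1 on the absolute log2 fold change. Past both limits were Gjb2 in both wild-type sets and in GRL/L, Gjb2 and Gjb5 in GRD/D, and no member in GRD+L/D+L, where Gjb2 changed by -0.996. Of all genes tested, 2.01% passed both in GRwt/wt of run 1, 0.981% in GRD/D, 0.400% in GRD+L/D+L, 0% in GRko/ko, 4.49% in GRwt/wt of run 2 and 2.56% in GRL/L. The median log2 fold change of the 5 members was -0.18 in GRwt/wt of run 1 and -0.03 in run 2, beside -0.0018 and -0.011 over all genes tested.

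Under vehicle, without added Dex, the mutants already differed from wild type in several of these genes. The culture medium contained serum, whose glucocorticoid content is not given. Gjb2 stood higher than in wild type of run 1 in GRko/ko (59.5 ± 5.16 against 11.4 ± 1.20 CPM, mean ± SD, n = 3; log2 difference 2.38 ± 0.09, edgeR adjusted p = 2.19e-22) and in GRD/D (27.6 ± 0.85 CPM; 1.27 ± 0.10, edgeR adjusted p = 1.22e-11), and lower than in wild type of run 2 in GRL/L (57.7 ± 4.42 against 74.3 ± 4.39 CPM; -0.36 ± 0.07, edgeR adjusted p = 2.34e-04). None of these sets overlaps its wild-type set, which is a description only. Of all genes tested, 45.7% passed in the vehicle comparison of GRko/ko, 9.55% in that of GRD/D and 11.3% in that of GRL/L. In GRD+L/D+L (14.4 ± 1.23 CPM) the excess of 0.33 ± 0.11 passed (edgeR adjusted p = 0.0182) but was lost without GRD+L/D+L vehicle replicate 1 or GRwt/wt vehicle replicate 1 or 2, down to 0.26. The lowered level that Dex left in GRD/D, 8.74 CPM, was thus above the 2.76 CPM of Dex-treated wild type, even though the response was not shown to differ.

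Gja1 under vehicle was higher than in wild type of its run in GRD+L/D+L (187 against 127 CPM; 0.55 ± 0.05, edgeR adjusted p = 2.97e-11), GRko/ko (189 CPM; 0.57 ± 0.05, edgeR adjusted p = 2.80e-12) and GRL/L (198 against 154 CPM; 0.37 ± 0.05, edgeR adjusted p = 7.02e-07), and lower in GRD/D (97.8 CPM; -0.38 ± 0.05, edgeR adjusted p = 9.12e-07). With wild type of both runs pooled, the GRD/D and GRL/L differences did not pass (edgeR adjusted p = 0.356 and 0.434). Gjb5 was higher in GRko/ko (0.68 ± 0.18, edgeR adjusted p = 1.87e-03) and lower in GRL/L (-0.96 ± 0.18, edgeR adjusted p = 2.63e-04). Its lower level in GRD+L/D+L (-0.57 ± 0.21, edgeR adjusted p = 0.0385) was not called in any of the 6 fits without 1 library. Gjc1 was lower in GRko/ko (-0.64 ± 0.08, edgeR adjusted p = 1.62e-08) and in GRD+L/D+L (-0.36 ± 0.08, edgeR adjusted p = 4.16e-04). Panx1 was lower in GRD+L/D+L (-0.36 ± 0.09, edgeR adjusted p = 2.51e-03).

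In all, 2 of 5 members differed from wild type under vehicle in GRD/D, 5 in GRD+L/D+L, 4 in GRko/ko and 3 in GRL/L, where 9.55%, 29.9%, 45.7% and 11.3% of all genes tested did. Cell markers moved with genotype in the same libraries. Macrophage markers under vehicle summed to 197 to 349 CPM in wild type of run 1, 715 to 785 in GRD/D, 32.2 to 40.8 in GRD+L/D+L and 2960 to 3292 in GRko/ko, and to 491 to 517 CPM in wild type of run 2 and 878 to 1046 in GRL/L. Cartilage markers summed to 30.6 to 33.9 CPM in wild type of run 1 and 185 to 576 in GRko/ko, and to 70.9 to 86.1 and 118 to 120.3 in wild type of run 2 and GRL/L. Muscle markers summed to 22.4 to 28.3 CPM in wild type of run 1, 31.9 to 34.9 in GRD/D, 123 to 140.3 in GRD+L/D+L and 70.3 to 72.2 in GRko/ko, and to 20.8 to 21.3 and 13.1 to 14.2 in wild type of run 2 and GRL/L. Only 4 of the 8 muscle markers were tested, and the sum is mostly Des. Des ranged from 11.9 to 140 CPM over the libraries, and no other muscle marker exceeded 3.34 CPM in any library. Epithelial markers summed to 4.54 to 5.90 CPM in wild type of run 1, 4.36 to 4.55 in GRD/D, 6.12 to 7.02 in GRD+L/D+L and 8.91 to 10.8 in GRko/ko. In run 2 they summed to 5.43 to 51.6 in wild type and 2.78 to 3.40 in GRL/L. Cdh1 had 0 to 1 counts in wild type of run 1 and 12 to 19 in GRko/ko. Epcam had 1 to 6 and 1 to 7 there, and Krt5 and Krt14 had 0 or 1 in each of these libraries. Their part in the connexin differences was not tested.

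**Figure D4:**
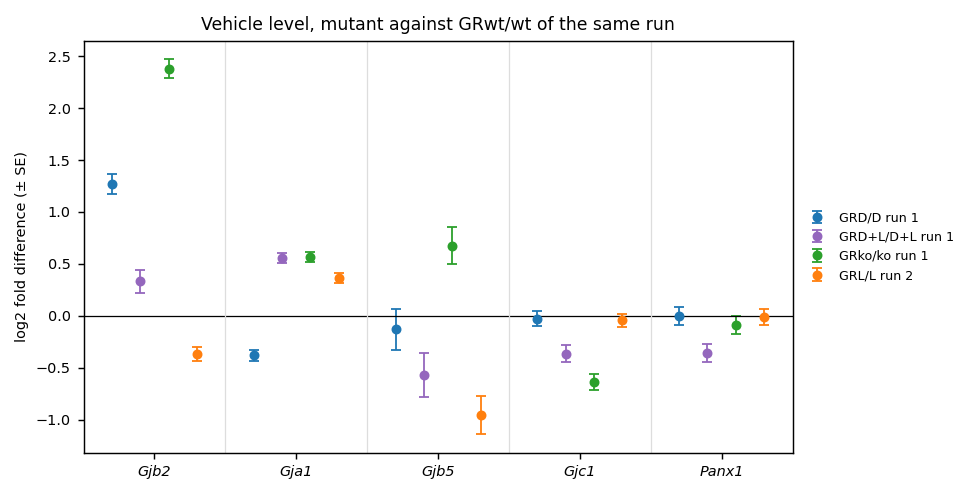
Log2 difference of the vehicle level between each mutant and GRwt/wt of the same run for the 5 tested members, with bars for the SE of the fit (3 libraries per group). Gjb2 in GRko/ko (2.38) and GRD/D (1.27) stands furthest from 0, and GRL/L lies below 0 for Gjb2 and Gjb5 and above 0 for Gja1.

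Ordered by level over the 12 groups, Gjb2 was highest in vehicle GRwt/wt of run 2 (74.3 ± 4.39 CPM), followed by GRko/ko with Dex (69.8 ± 6.42) and with vehicle (59.5 ± 5.16) and vehicle GRL/L (57.7 ± 4.42), and lowest in Dex-treated GRwt/wt of run 1 (2.76 ± 0.46). Libraries overlap between the first and second of these groups and between the 2 that follow. Gja1 was highest in GRL/L with vehicle (198 ± 5.58 CPM) and lowest in Dex-treated GRD/D (67.7 ± 5.16), and its 5 highest groups each overlap the next. Per kilobase of merged exon, and averaged over all libraries, Gja1 stood at 14.6 CPM, Gjb2 at 12.9, Gjc1 at 4.83, Panx1 at 2.44, Gjb5 at 2.38 and Gjb6 at 0.027. The merged exons of Gja1 span 10257 bases over 8 annotated transcripts and those of Gjb2 2406 bases, so a shorter dominant transcript would place Gja1 higher. The order of the first 2 turned between groups: in vehicle GRwt/wt libraries of run 1 Gja1 stood at 11.2 to 13.1 CPM per kilobase and Gjb2 at 4.30 to 5.28, and in those of run 2 at 14.6 to 15.3 and 29.8 to 33.0.

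Other connexins that passed the filter on low counts include Gja3, Gja4, Gja5 and Gjc3. Gja3, the lens connexin next to Gjb2, rose with Dex in GRD/D (0.88 ± 0.22, edgeR adjusted p = 6.23e-03) and in GRwt/wt of run 2 (0.89 ± 0.26, edgeR adjusted p = 8.81e-03), from a level of 0.79 CPM in the latter, and was 2.05 ± 0.17 higher in GRD+L/D+L than in wild type under vehicle. The rise in wild type was lost without vehicle replicate 4 of run 2 (edgeR adjusted p = 0.0561). Gja5, a connexin of arterial endothelium, fell in GRwt/wt of run 2 from 1.79 to 0.53 CPM (-1.72 ± 0.31, edgeR adjusted p = 3.08e-05) and in GRL/L from 1.14 to 0.53 CPM (-1.08 ± 0.33, edgeR adjusted p = 0.0157). The GRL/L call held in 3 of 6 fits without 1 library. Without the keratin-rich GRwt/wt vehicle replicate 6, Gja5 and Gja3 in wild type of run 2 gave -1.78 and 1.02, both called. Krt14 and Cdh1, the epithelial genes past both limits, fell by 2.23 and 1.29 in that wild type with all libraries in the fit. Krt14 had 26, 25 and 674 counts with vehicle and 101, 19 and 27 with Dex, overlapping sets of which 1 vehicle library stands far above the rest, and Cdh1 had 22, 16 and 30 counts with vehicle and 5, 13 and 8 with Dex. Endothelial markers, 6 of 8 tested, summed to 14.1 to 15.1 CPM with vehicle and 13.3 to 14.6 CPM with Dex there, and to 13.2 to 13.5 and 14.5 to 14.8 CPM in GRL/L. Their part in the fall of Gja5 was not tested. Under vehicle the same markers summed to 13.4 to 16.3 CPM in wild type of run 1, 10.3 to 12.4 in GRD/D, 20.4 to 23.5 in GRD+L/D+L and 18.6 to 21.2 in GRko/ko, and their part in the following differences was not tested. Gja4, another endothelial connexin, was higher under vehicle than in wild type in GRD+L/D+L (1.60 ± 0.50, edgeR adjusted p = 0.0127) and GRko/ko (1.55 ± 0.49, edgeR adjusted p = 9.39e-03), and Gja5 was lower in GRD/D (-2.20 ± 0.46, edgeR adjusted p = 9.31e-04). These differences rest on few counts. Gja4 had at most 20 counts in any library. Gja5 had 2, 6 and 6 counts in vehicle GRD/D and 20, 17 and 21 in vehicle wild type of run 1. Gjc3 passed in no Dex or vehicle comparison.

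Around Gjb2 on chromosome 14, Pspc1, Zmym5, Zmym2, B020004C17Rik and Gja3 lie on one side and Gjb6, Cryl1, Ift88, Il17d and Eef1akmt1 on the other, with midpoints 26 to 458 kb away. B020004C17Rik had no counts in any library and Gjb6 was not tested. In wild type of run 1 the 8 tested neighbours gave -0.18 to 0.36 with Dex, and none passed. In run 2 Cryl1 (-0.41 ± 0.10, edgeR adjusted p = 1.59e-03), Pspc1 (-0.23 ± 0.06, edgeR adjusted p = 5.23e-03) and Zmym2 (-0.17 ± 0.06, edgeR adjusted p = 0.0189) fell and Gja3 and Il17d (0.43 ± 0.15, edgeR adjusted p = 0.0295) rose. Zmym2 also fell in GRD/D (-0.21 ± 0.06, edgeR adjusted p = 0.0223), where Gja3 rose, and Pspc1 in GRL/L (-0.25 ± 0.06, edgeR adjusted p = 3.11e-03), while no neighbour passed in GRD+L/D+L or GRko/ko. The Gjb2 level of 519% of wild type in vehicle GRko/ko had beside it Gja3 at 1.21 ± 0.18 and Cryl1 at 0.79 ± 0.12 on the log2 scale, with no other neighbour called.

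A list of 21 scaffolds, adhesion partners, kinases and degradation factors that work with gap junctions was tested whole, and in GRwt/wt of run 1 5 rose, among them Cdh2, Tjp1 and Cav1, and Cnst, which encodes the connexin-trafficking protein consortin, fell (-0.36, edgeR adjusted p = 4.49e-06). In GRD/D 5 rose and 3 fell, in GRD+L/D+L 2 and 2, in GRwt/wt of run 2 3 and 5, and in GRL/L 3 and 3, all of them by less than 1 on the log2 scale, with a list median between -0.04 and 0.07. Of all genes tested 13.9% passed in GRwt/wt of run 1, 11.9% in GRD/D, 5.00% in GRD+L/D+L, 31.6% in GRwt/wt of run 2 and 19.1% in GRL/L. Cdh2, which encodes N-cadherin, rose by 0.39 in GRwt/wt of run 1 (edgeR adjusted p = 2.83e-07) and by 0.56 in run 2 (edgeR adjusted p = 6.50e-11). The genes of this list given by name were picked with their values in view.

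Of 14 genes for extracellular ATP and adenosine, the signals that pannexin channels feed, 1 rose and 1 fell in GRwt/wt of run 1, where 13.9% of all genes tested passed, and 1 rose and 6 fell in run 2, where 31.6% passed and 16.7% fell. Ank, which encodes a membrane protein needed for release of ATP and pyrophosphate, fell in every genotype with a receptor: by 0.72 ± 0.05 in GRwt/wt of run 1 (edgeR adjusted p = 5.97e-15), by 0.62 ± 0.05 in GRD/D (edgeR adjusted p = 8.81e-13), by 0.55 ± 0.04 in GRD+L/D+L (edgeR adjusted p = 3.25e-11), by 1.22 ± 0.05 in GRwt/wt of run 2 (edgeR adjusted p = 6.38e-22) and by 0.77 ± 0.05 in GRL/L (edgeR adjusted p = 5.87e-16). In GRko/ko it gave 0.04 ± 0.04. Nt5e, which encodes the enzyme that makes adenosine outside the cell, rose in wild type of both runs (0.89 and 0.85, edgeR adjusted p = 2.83e-04 and 1.34e-07) and was chosen after its values were seen. Adora2a, an adenosine receptor, fell by 1.96 ± 0.64 in GRwt/wt of run 2 (edgeR adjusted p = 0.0173). Its SE was far wider than that of Ank in the same set, and its call was not examined in fits without 1 library. Of 8 tested transcription factors known to act on connexin genes, 2 fell in GRwt/wt of run 1 (Tbx2, -0.38, and Tbx3, -0.39), and in run 2 Tbx2 rose (0.42) while Snai2 (-0.38) and Sp1 (-0.29) fell; none reached a log2 fold change of 1, and these too were picked with their values in view and are to be read against the same shares of all genes.

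The genes whose level followed Gjb2 most closely over the 12 group means, after the mean of each run had been subtracted, were by Pearson's r Slc38a6 (r = 0.976), Rab7b (0.974), Egr2 (0.974), Egr3 (0.970) and Gtf2h2 (0.969), out of 11774 genes. Spearman's rho put other genes first, Irf1 (0.979), Aldh1a3 (0.972), Zic1 and Sema7a (0.965 each) and Gtf2h2 (0.958), and shared only Gtf2h2 with that list. By Pearson's r, for Gja1 they were Hsd17b4, Rnf167 and Ano1 (0.935 to 0.945), for Gjb5 they included Gm7964 and Brcc3 (0.941 and 0.898), for Gjc1 Gpx7, Fmod and S1pr3 (0.960 to 0.963) and for Panx1 Usp37, Lnpk and Ints7 (0.914 to 0.936). The 12 points share the libraries and 2 runs and are not independent, and these r are descriptions. Egr2 and Egr3, immediate early transcription factors, and Rab7b fell with Dex in wild type of run 1 (-0.96, -1.34 and -0.96) and of run 2 (-0.98, -1.28 and -1.02), each less than Gjb2, and gave 0.26, 0.34 and -0.02 in GRko/ko, where none passed. Slc38a6 gave -0.41 and -0.42, and Gtf2h2 -0.35 and -0.18 without passing (edgeR adjusted p = 0.0524 and 0.131). Rab7b passed in all 3 receptor mutants, but Egr3 did not in GRD/D (-0.37, edgeR adjusted p = 0.102), nor Egr2 in GRD+L/D+L (-0.27, edgeR adjusted p = 0.303). These genes were chosen for following Gjb2 over the same groups, so their changes are not separate support. Among the members, Gja1 and Gjc1 ran opposite to each other over the group means (r = -0.870), and Gja1 and Gjb2 had r = 0.567.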

How the data were processed

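RNA was sequenced on an Illumina platform by the authors. Per the submitters' processing notes, reads were aligned to mm10 with HISAT2 2.1.0 and counted per gene with featureCounts 2.0.0, and the methods of the study keep uniquely mapped reads. The strand setting and annotation are not given in the sources used here; no member overlaps another annotated gene. The deposited values are raw counts per Ensembl gene, and 55141 of 55487 identifiers had a symbol. Counts were tested with edgeR 4.0.16 (limma 3.58.1, R 4.3.3): TMM scaling, filterByExpr on the 12 groups (15489 genes left), and the quasi-likelihood F test in one fit of all 36 libraries with a term per group. Every contrast was thus within a run, apart from the comparison of the 2 wild-type sets. A gene passed at a Benjamini-Hochberg adjusted p of at most 0.05 over all genes tested. Each ± after a log2 value is the SE of the fit. The fit was checked on simulated counts.

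The study's formula joins wild type of both runs and was run as an alternative, with DESeq2 1.42.0, other size factors, no filter, each run on its own, a replicate block and fits without each library. Members, lists and named genes were chosen with earlier results of these data known. Named were the 6 genes, Nr3c1, tested connexins and pannexins, list genes past both limits with Dex, the neighbours of Gjb2 and the genes most like each member (log2 CPM, prior count 2, mean count of at least 50). Some genes that this rule names are not reported here. Coordinates and merged exon lengths are from GENCODE vM21 on mm10. Counts of 0 cover counting error only. Pairs of libraries of a group differed by more than sampling noise (1.38 to 6.03 times). Libraries that share a replicate number deviated together (r over 0.1) in 3 of 18 pairs, so the numbers were not taken as pairing them.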

Additional observations from a re-analysis of the deposited data

Results flagged for a closer look

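Groups of 3 libraries were not screened for outliers. The Dex response differed between groups, by a test of the difference itself, in 5 of the 30 comparisons made over 5 members and 6 contrasts, in which, of all genes tested, 3.29% passed for GRD/D, 3.23% for GRD+L/D+L, 8.48% for GRko/ko and 1.85% for GRL/L against wild type, 0.0775% for GRD+L/D+L against GRD/D and 7.09% between the wild-type runs. For Gjb2 the response of GRD+L/D+L exceeded that of wild type in run 1 by 1.05 (edgeR adjusted p = 4.63e-04), which means a weaker fall. The Gjb2 response of GRko/ko exceeded that of wild type in run 1 by 2.28 (edgeR adjusted p = 4.94e-13), which means no fall. Both rest on the wild-type libraries whose fall led to the choice of Gjb2. For Gja1 the response of GRko/ko exceeded that of wild type by 0.64 (edgeR adjusted p = 1.45e-08), and by 0.17 without passing with wild type of both runs pooled. The GRL/L response of Gja1 differed from wild type of run 2 by -0.26 (edgeR adjusted p = 0.0289), and by 0.15 without passing with wild type of both runs pooled. The wild-type response of Gja1 differed between the runs by 0.88 (edgeR adjusted p = 9.81e-12), with all Dex libraries below the vehicle libraries in run 1 and above them in run 2. The cause was not tested in any of these.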

How the results depend on the processing

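With wild type of both runs pooled, Gja1 gave -0.19 as its wild-type response, against -0.65 in run 1 and 0.23 in run 2, and its differences to wild type were 0.17 for the GRko/ko response, 0.15 for the GRL/L response (-0.26 within run 2), -0.17 for the GRD/D vehicle level and 0.15 for the GRL/L vehicle level, none passing. Pooling also made the wild-type response of Panx1 pass (-0.16) and that of GRD/D against wild type for Gjb5 (0.87), which passed with only the libraries of the run too (0.76). The GRL/L difference of Gja1 did not pass with only the libraries of the run (-0.26) or with the replicate block (-0.26, edgeR adjusted p = 0.0592), and the block changed no other call on a member. No paired analysis was possible for vehicle levels because replicate numbers of different genotypes name different mice. DESeq2 and the fit without a filter called Gjb2 between GRD+L/D+L and GRD/D (0.65 and 0.67) and Gjb5 in GRL/L (0.52 and 0.51). The cause was not tested. By these settings 1 member was called in the GRD/D difference, 1 in GRD+L/D+L against GRD/D, 1 in the GRko/ko difference, 0 in the GRL/L difference and 1 in the GRD/D vehicle level. Past a log2 fold change of 1 the members called were 1 in both wild-type sets, GRL/L, the GRko/ko difference and the GRD/D and GRko/ko vehicle levels, and 0 in GRD+L/D+L, in the GRL/L and run differences and in the GRD+L/D+L and GRL/L vehicle levels. Of all genes tested, 2.01% and 4.49% passed both limits with Dex in wild type of runs 1 and 2, 2.56% in GRL/L and 0.400% in GRD+L/D+L. Such shares are not given here for the differences, the vehicle levels or the other settings, so those counts describe the members only. Without 1 library the ranges were 0.12 to 0.24 for Gja1 between GRD+L/D+L and wild type, -0.29 to -0.24 for Gja1 between GRL/L and wild type, 0.26 to 0.41 for vehicle Gjb2 and -0.63 to -0.48 for vehicle Gjb5 in GRD+L/D+L, 0.20 to 0.70 for Gjb5 and -0.33 to -0.15 for Panx1 with Dex in GRL/L. Counts of members called then ranged from 1 to 3 for Dex in GRL/L, 1 to 2 and 0 to 1 for the GRD+L/D+L and GRL/L differences and 3 to 4 for vehicle GRD+L/D+L. The shares of all genes called in these fits are not given either. The other 1276 values for members kept their call, or a count within 1.5 times, and some values that did not pass changed sign, among them, with wild type pooled, the Gja1 differences of GRD/D (-0.35) and GRD+L/D+L (-0.30) from wild type. Depth limits Gjb6, Gja4 and Gjc3, with 267 counts or fewer in all.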
